A study of Rattus norvegicus with 23 samples.

Results

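The genes described here form a short list of 6 extracellular matrix and matrix adhesion genes, out of 32883 gene identifiers in the deposited count table. They were chosen by identifier and are, in the order of the list, Fn1 (ENSRNOG00000014288), Col1a1 (ENSRNOG00000003897), Spp1 (ENSRNOG00000043451), Timp1 (ENSRNOG00000010208), Mmp2 (ENSRNOG00000016695) and Cd44 (ENSRNOG00000006094). The names came with the list. The count table gives identifiers without names, and 0 of the 32883 identifiers occurred in the RefSeq rat gene table used here, so the pairing of name and identifier could not be checked against it. A member was used where at least 2 libraries held 10 or more counts. That left 5 of the 6: Spp1 reached 10 counts in 1 library only, and its counts are given without a test.

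All samples were wild-type neural stem cells of the adult female rat hippocampus, labelled as kept in mixed differentiation medium (DMEM-F12 and N2 with 1 uM retinoic acid and 1% FBS). They had been sampled at 0, 12, 24 or 36 h on a stiff or a soft substrate, so all groups share the genotype and the medium, and the 0 h libraries carry the same medium label as the later ones. There were 3 libraries in each of the stiff groups (0, 12, 24 and 36 h) and in the soft groups at 0, 24 and 36 h, and 2 in the soft group at 12 h, which makes 23. The study asks which genes of these cells depend on substrate stiffness. Neither the stiffness of each substrate nor the handling of the cells before 0 h could be learned from the labels. The labels number the libraries of a group 1 to 3 as rounds but do not call the rounds separate cultures, so every p-value measures the spread between these libraries, which may be technical.

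The extracellular matrix is the protein and sugar scaffold that cells secrete and hold on to. Fibronectin (Fn1) and type I collagen (Col1a1) are structural ligands that cells bind through integrins, and osteopontin (Spp1) is a secreted, soluble or matrix-bound ligand of integrins and of CD44. CD44 is a cell surface receptor for the glycan hyaluronan and is known from neural progenitors of the astrocyte lineage. The secreted enzyme MMP2 (gelatinase A) cuts denatured collagen and basement membrane proteins, and TIMP1 is a secreted inhibitor of such metalloproteinases.

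Over the 36 h the receptor Cd44 had the largest change of the 5 tested members on both substrates. It was 6.36-fold higher at 36 h than at 0 h on stiff and 5.30-fold higher on soft. The matrix ligand Fn1 was 3.18-fold higher on stiff and 2.84-fold higher on soft, and the protease Mmp2 3.01-fold and 2.83-fold. The inhibitor Timp1 also rose on both substrates, while Col1a1 passed the test on stiff only. For Col1a1 the stiff change minus the soft change was not called. The soft call of Fn1 and the stiff calls of Timp1 and Col1a1 were lost when certain single libraries were left out. Between stiff and soft, by contrast, 0 of the 5 tested members passed the test at any of the 4 times. In these bulk libraries, more cells of an expressing type and more RNA per cell cannot be told apart.

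Levels are given in CPM, the counts of a gene per 1000000 counts of its library, with library totals scaled by TMM (trimmed mean of M values) factors. Library totals ran from 2462360 to 6811157 counts, and at 12 h the 3 stiff libraries, at 2462360 to 4803755, were shallower than the 2 soft ones, at 5428086 and 6519349. Differences were tested with edgeR's quasi-likelihood test in 1 fit over 11857 genes and 23 libraries. A gene was called where its Benjamini-Hochberg adjusted p over all those genes was under 0.05. Libraries read tags near the 3′ end of transcripts, so isoforms of Fn1 or Cd44 that share that end were counted together. Without named identifiers, neither marker genes of neural stem cells or of other cell types nor the wider lists of collagens, laminins, integrins, proteases and focal adhesion genes could be read from the table.

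**Figure D1:**
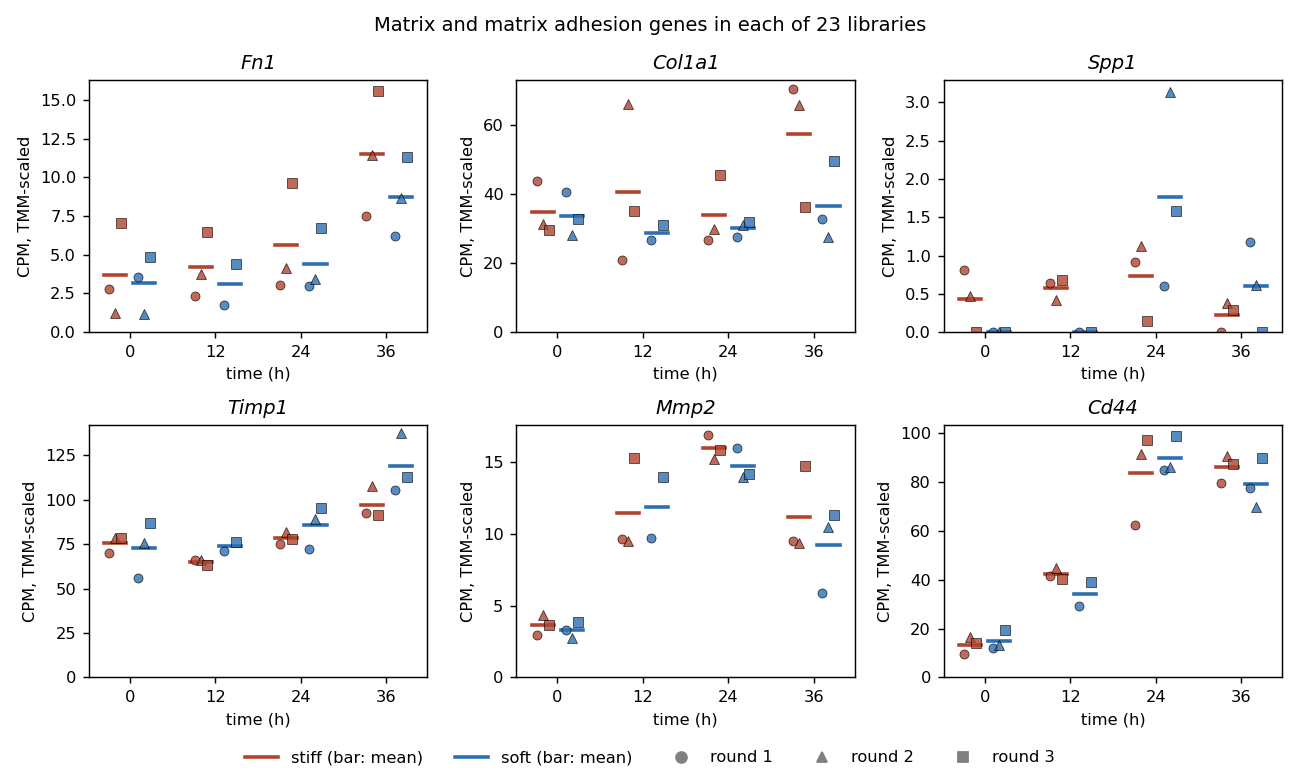
Levels of the 6 genes in each of the 23 libraries, as TMM-scaled CPM against time in hours. Each symbol is 1 library (circle, triangle and square for rounds 1, 2 and 3), red for stiff and blue for soft, and each bar is a group mean. Cd44 and Mmp2 at 12, 24 and 36 h lie above all their 0 h libraries on both substrates, and Fn1 is highest in round 3 in each of the 8 groups.

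No difference between stiff and soft passed the test for the 5 tested genes at any time. In the 0 h comparison 0 of 5 members were called, with a background of 0% over all tested genes, and in that of 12 h 0 of 5, with a background of 6.6%. The 24 h comparison called 0 of 5, with a background of 0%, and the 36 h comparison 0 of 5, with 0.0675%. For a stiffness effect that differs between times, an F test of 3 coefficients called 0 of 5, against 3.31% of all genes. DESeq2 called 0 of 5 in the comparisons of 0, 12 and 24 h and 0 of 4 in that of 36 h, where it gave no adjusted p for Fn1. For 5 genes these counts lie within reach of the background, so nothing particular to the members can be read from them. Over all tested genes 431, 2284, 358 and 835 reached an unadjusted p under 0.05 in the comparisons of 0, 12, 24 and 36 h. Among the 5 members 0, 0, 0 and 2 did, namely Col1a1 and Timp1 at 36 h.

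How large a difference the libraries leave room for depends on the gene. For Cd44, the log2 fold change of stiff over soft was -0.13 (0 h), 0.30 (12 h), -0.10 (24 h) and 0.14 (36 h), and the range of 2 SE on either side (24 h) ran from -0.40 to 0.19. For Mmp2 the 4 values were 0.16, -0.07, 0.12 and 0.25, with a 24 h range from -0.32 to 0.56. These ranges reach less than 2-fold in either direction. Fn1, with 7 to 64 counts in a library, was measured far less closely. Its log2 fold changes were 0.25, 0.33, 0.40 and 0.41, and at 24 h the range ran from -0.58 to 1.37, which takes in a doubling on stiff. These values do not show that the substrates act alike on Fn1.

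**Figure D2:**
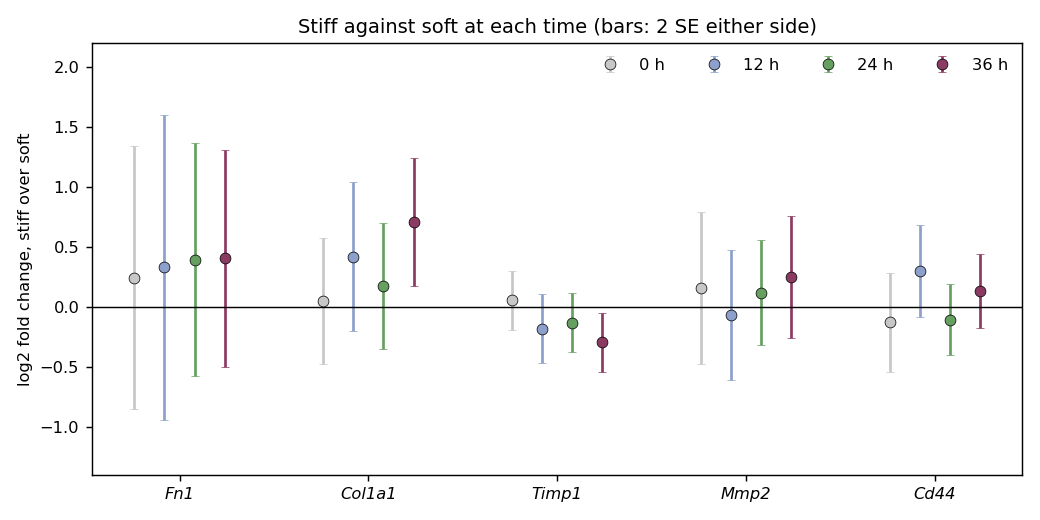
Log2 fold change of stiff over soft (vertical axis) for each tested gene at 0, 12, 24 and 36 h, with bars of 2 SE on either side from the edgeR fit. The bars cross 0 except for Col1a1 and Timp1 at 36 h, neither of which is called after adjustment over all genes.

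Fn1 encodes fibronectin, the glycoprotein that links integrins to collagen and other matrix parts. On stiff its 3 libraries held 2.76, 1.25 and 7.07 CPM (0 h), 2.35, 3.73 and 6.45 (12 h), 3.03, 4.13 and 9.63 (24 h), and 7.52, 11.4 and 15.6 (36 h), in the order of rounds 1, 2 and 3. On soft the values were 3.53, 1.14 and 4.83 CPM (0 h), 1.78 and 4.40 (12 h) in rounds 1 and 3, 2.99, 3.42 and 6.75 (24 h), and 6.20, 8.63 and 11.3 (36 h). On either substrate every 36 h library lay above every 0 h library, while the 0, 12 and 24 h libraries overlapped. In 8 of 8 groups the highest library was that of round 3, a pattern seen after the values were examined.

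Fn1 rose over the whole 36 h. At 36 h it averaged 11.5 ± 4.03 CPM on stiff, against 3.70 ± 3.02 at 0 h (SD, n = 3 each), a log2 fold change of 1.67 (SE 0.478, edgeR adjusted p = 0.00336). On soft it averaged 8.72 ± 2.57 CPM at 36 h, against 3.16 ± 1.87 at 0 h (SD, n = 3 each), a log2 fold change of 1.51 (SE 0.518, edgeR adjusted p = 0.0141). It was higher at 36 h than at 0 h in 3 of 3 rounds on each substrate. The soft call was lost without soft 0 h replicate 2 (log2 fold change 1.05, edgeR adjusted p = 0.108) or without soft 36 h replicate 3 (1.32, 0.0503). It was also lost with all libraries thinned to the smallest total (1.02, edgeR adjusted p = 0.11). By single steps, the last 12 h held the largest Fn1 values, a log2 fold change of 1.02 on stiff and 1.00 on soft, but neither passed the test (edgeR adjusted p = 0.164 and 0.226). With no filter on low counts, where edgeR fits a different spread, both were called (edgeR adjusted p = 0.0171 and 0.0383). Both were also called with the round as a block (edgeR adjusted p = 0.0112 and 0.0296), though over all tested genes the rounds were not shown to pair the libraries. In 3 of 3 rounds on each substrate Fn1 was higher at 36 h than at 24 h. The stiff step was called without stiff 24 h replicate 3 (1.68, edgeR adjusted p = 0.0419). Ordered by mean level, the 8 groups ran from soft 12 h at 3.09 CPM to stiff 36 h, and each group overlapped the next.

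Col1a1 encodes the main chain of type I collagen, a fibril-forming protein. On stiff its libraries held 43.6, 31.2 and 29.4 CPM (0 h), 20.7, 65.8 and 34.9 (12 h), 26.5, 29.9 and 45.4 (24 h), and 70.4, 65.6 and 36.2 (36 h). On soft they held 40.6, 27.9 and 32.6 CPM (0 h), 26.5 and 30.9 (12 h), 27.5, 31.1 and 31.7 (24 h), and 32.7, 27.4 and 49.5 (36 h). Libraries of 1 group differed widely on stiff, most of all at 12 h, where the round 2 library, the shallowest of all, was about as high as the top 36 h libraries. Each of the 8 groups overlapped its neighbour in the order of means.

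On stiff Col1a1 averaged 57.4 ± 18.5 CPM at 36 h, against 34.7 ± 7.69 at 0 h (SD, n = 3 each). This log2 fold change of 0.73 (SE 0.256) passed the test (edgeR adjusted p = 0.0149), although the 36 h library of round 3 lay within the 0 h range. The call was lost without any of 4 libraries. Left out in turn, stiff 0 h replicates 2 and 3 gave log2 fold changes of 0.66 and 0.63 (edgeR adjusted p = 0.058 and 0.0635), and stiff 36 h replicates 1 and 2 gave 0.57 and 0.62 (edgeR adjusted p = 0.0917 and 0.0728). DESeq2 did not call it either (adjusted p = 0.0704). On soft Col1a1 averaged 36.6 ± 11.5 CPM at 36 h, against 33.7 ± 6.39 at 0 h (SD, n = 3 each), with a log2 fold change of 0.07 (edgeR adjusted p = 0.842). That stiff passed and soft did not does not by itself show a difference between them. Tested directly, the stiff change minus the soft change was 0.66 on the log2 scale and was not called (SE 0.375, edgeR adjusted p = 0.848). The range of 2 SE on either side ran from -0.09 to 1.41. It takes in 0 and also a doubling, so these values do not show that the changes were alike.

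At 36 h Col1a1 was 1.64-fold higher on stiff than on soft by the fit, with a log2 fold change of 0.71 (SE 0.267) and an unadjusted p of 0.0122, but over all genes the edgeR adjusted p was 0.524. Stiff was higher in 2 of 3 rounds. The round 3 pair went the other way, with 36.2 CPM for stiff and 49.5 CPM for soft. With no filter on low counts, where edgeR fits a different spread, this comparison was called (log2 fold change 0.71, edgeR adjusted p = 0.00106).

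Spp1 encodes osteopontin, a secreted phosphoprotein that binds integrins and CD44. It had few counts: 8 of 23 libraries held 0 counts, and the whole series held 70. On stiff the groups held 8 counts (0 h), 6 (12 h), 13 (24 h) and 3 (36 h). On soft they held 0 counts (0 h) and 0 (12 h), 32 (24 h) and 8 (36 h). The soft 24 h libraries accounted for the most counts of any group, with 3, 22 and 7 in rounds 1, 2 and 3, so 1 library gave most of that sum. Exact Poisson intervals, which cover counting error only, ran from 21.9 to 45.2 for the 32 counts of soft 24 h and up to 3.69 for each sum of 0. At 12 h the stiff libraries held 3, 1 and 2 counts and the soft libraries 0 and 0. With no filter on low counts, edgeR called Spp1 in both comparisons on soft that set one of these sums against a sum of 0: 24 h over 12 h (edgeR adjusted p = 0.00128) and 36 h over 0 h (edgeR adjusted p = 0.0154). No fold change is given at such counts.

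Cd44 encodes a single-pass receptor that binds hyaluronan outside the cell and links to the cytoskeleton inside it. On stiff its libraries held 9.59, 16.7 and 14.2 CPM (0 h), 41.5, 44.7 and 40.4 (12 h), 62.2, 91.3 and 97.2 (24 h), and 79.7, 90.5 and 87.5 (36 h). On soft they held 12.2, 13.5 and 19.3 CPM (0 h), 29.0 and 39.0 (12 h), 85.0, 86.0 and 98.6 (24 h), and 77.3, 69.8 and 89.9 (36 h). The 0 h, 12 h and 24 h libraries did not overlap on either substrate, and the 24 h and 36 h libraries did.

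The promoter of Cd44 is shown because this gene changed most, and that of Timp1 beside it because it is the other tested member in the promoter table. Both come from RefSeq (rat build GRCr8, matched by symbol; 3 of the 6 members were matched), run 5′ to 3′ on the gene's strand, and cover 250 bases before to 50 after the annotated gene start. Capitals mark matches, on either strand, to any of 3 motifs chosen after the data were seen: AGGTCA, the half-site of retinoic acid receptors, GGAATG, the core bound by TEAD factors, and TGANTCA, the AP-1 site. The Cd44 window is chr3:109699375-109699674 on the minus strand and the Timp1 window chrX:3771073-3771372 on the minus strand.
Cd44: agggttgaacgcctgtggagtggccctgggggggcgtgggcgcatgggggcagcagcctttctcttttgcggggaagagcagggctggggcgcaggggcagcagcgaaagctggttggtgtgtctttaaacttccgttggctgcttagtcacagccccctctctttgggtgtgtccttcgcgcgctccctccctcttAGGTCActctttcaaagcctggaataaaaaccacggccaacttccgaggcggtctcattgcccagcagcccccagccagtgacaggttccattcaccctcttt
Timp1: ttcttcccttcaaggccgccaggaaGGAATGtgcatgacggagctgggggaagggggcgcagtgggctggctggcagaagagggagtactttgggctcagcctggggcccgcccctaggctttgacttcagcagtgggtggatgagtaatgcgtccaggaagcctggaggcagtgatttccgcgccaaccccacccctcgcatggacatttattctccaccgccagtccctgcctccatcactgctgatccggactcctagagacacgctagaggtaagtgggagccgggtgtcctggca
The Cd44 window held 1 match to AGGTCA, which 16.2% of 33469 rat promoter windows of this length also hold, and none to the other motifs. The Timp1 window held 1 match to GGAATG, found in 14.2% of windows, and none to the others; TGANTCA occurs in 7.33%. A match describes the letters and does not show a site in use. The lack of an exact match does not show that a variant of the site is absent.

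Cd44 rose in the first 12 h and again in the next 12 h. On stiff it averaged 42.2 ± 2.26 CPM at 12 h, against 13.5 ± 3.61 at 0 h (SD, n = 3 each), a 3.12-fold increase (log2 fold change 1.64, SE 0.191, edgeR adjusted p = 4.08e-08). On soft it averaged 34.0 ± 7.01 CPM at 12 h (SD, n = 2), against 14.98 ± 3.81 at 0 h (SD, n = 3), a 2.32-fold increase (log2 fold change 1.21, SE 0.203, edgeR adjusted p = 2.18e-05). By 24 h it stood at 83.5 ± 18.7 CPM on stiff and 89.9 ± 7.61 on soft (SD, n = 3 each), log2 steps of 0.99 and 1.39 over 12 h (edgeR adjusted p = 1.45e-05 and 2.15e-07). From 24 h to 36 h the log2 fold changes were 0.04 on stiff and -0.20 on soft, and neither was called.

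At 12 h the 3 stiff libraries of Cd44 lay above both soft libraries, yet the log2 fold change of stiff over soft, 0.30 (SE 0.192), did not pass (edgeR adjusted p = 0.413). Over the first 12 h the stiff change minus the soft change was 0.43 on the log2 scale (SE 0.282, edgeR adjusted p = 0.595). Over the second 12 h the stiff change minus the soft change was -0.40 (SE 0.241, edgeR adjusted p = 0.413). These values share the 12 h libraries, whose depth differed between substrates. With all libraries thinned to the smallest total the 12 h comparison was again not called. At 36 h Cd44 averaged 85.9 ± 5.59 CPM on stiff and 79.0 ± 10.1 on soft (SD, n = 3 each). Its increase from 0 h to 36 h was exceeded by the increase of 322 of the 11857 tested genes on stiff and of 386 on soft. Genes that fell were not ranked here.

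Mmp2 encodes gelatinase A, a secreted protease. On stiff its libraries held 2.93, 4.37 and 3.63 CPM (0 h), 9.62, 9.52 and 15.3 (12 h), 16.8, 15.2 and 15.8 (24 h), and 9.52, 9.34 and 14.7 (36 h). On soft they held 3.33, 2.76 and 3.86 CPM (0 h), 9.68 and 13.98 (12 h), 15.96, 13.97 and 14.2 (24 h), and 5.90, 10.5 and 11.3 (36 h). All libraries from 12 h on lay above all 0 h libraries, and from 12 h on the libraries of 24 h were the closest together. In the order of group means the 2 groups of 0 h came first, clear of the rest, and from soft 36 h at 9.24 CPM up to stiff 24 h at 15.9 CPM each group overlapped the next.

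Mmp2 rose in the first 12 h, its only called step, and its group means were higher still at 24 h. It averaged 11.5 ± 3.29 CPM on stiff at 12 h, against 3.64 ± 0.723 at 0 h (SD, n = 3 each), a 3.11-fold increase (log2 fold change 1.64, SE 0.28, edgeR adjusted p = 3.71e-05). On soft it averaged 11.8 ± 3.04 CPM at 12 h (SD, n = 2), against 3.32 ± 0.552 at 0 h (SD, n = 3), a 3.63-fold increase (log2 fold change 1.86, SE 0.297, edgeR adjusted p = 1.05e-05). The next step, 24 h over 12 h, had log2 fold changes of 0.49 on stiff and 0.30 on soft and was not called. Without stiff 12 h replicate 3 the stiff step was called (0.73, edgeR adjusted p = 0.0396). At 36 h all 3 libraries on each substrate were below all 3 of 24 h, with log2 fold changes of -0.53 on stiff and -0.66 on soft, but after adjustment over all genes neither passed (edgeR adjusted p = 0.157 and 0.086). Compared with 0 h, Mmp2 was still higher at 36 h on stiff (log2 fold change 1.59, SE 0.272, edgeR adjusted p = 7.53e-06) and on soft (1.50, SE 0.292, edgeR adjusted p = 5.43e-05).

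Timp1 encodes a secreted inhibitor of metalloproteinases. On stiff its libraries held 69.9, 78.2 and 78.4 CPM (0 h), 66.1, 65.8 and 63.4 (12 h), 75.2, 81.7 and 77.8 (24 h), and 92.5, 107.9 and 91.1 (36 h). On soft they held 56.0, 75.7 and 86.9 CPM (0 h), 71.1 and 76.3 (12 h), 72.0, 89.3 and 95.5 (24 h), and 105.3, 137.7 and 112.9 (36 h). The stiff libraries were close together at each time and lowest at 12 h. The soft libraries spread more widely, and their 36 h values lay above all earlier ones.

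Timp1 rose by 36 h on both substrates. On stiff it averaged 97.2 ± 9.30 CPM at 36 h, against 75.5 ± 4.86 at 0 h (SD, n = 3 each), a log2 fold change of 0.37 (SE 0.123, edgeR adjusted p = 0.0114). This call was lost without stiff 0 h replicate 1 (0.32, edgeR adjusted p = 0.0538), without stiff 36 h replicate 2 (0.28, edgeR adjusted p = 0.0882) and after thinning to the smallest total (0.30, edgeR adjusted p = 0.0727). On soft Timp1 averaged 118.7 ± 16.9 CPM at 36 h, against 72.9 ± 15.6 at 0 h (SD, n = 3 each), a log2 fold change of 0.72 (SE 0.124, edgeR adjusted p = 9.87e-06). Most of the soft rise lay in the last 12 h, with a log2 fold change of 0.48 (SE 0.123, edgeR adjusted p = 0.00929). That step was no longer called without soft 24 h replicate 1 (0.37, edgeR adjusted p = 0.0897) or soft 36 h replicate 2 (0.35, edgeR adjusted p = 0.118). The last 12 h also held the largest step on stiff, a log2 fold change of 0.32 (SE 0.123), which was not called (edgeR adjusted p = 0.103). All stiff libraries of 36 h lay above all those of 24 h, so a late rise is not particular to soft.

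Timp1 was lower on stiff than on soft at 12 h and 36 h in each round with both libraries, 2 of 2 and 3 of 3. At 24 h it was lower on stiff in 2 of 3 rounds, and at 0 h in 1 of 3. No comparison of stiff with soft passed. At 36 h the log2 fold change of stiff over soft was -0.30 (SE 0.123, unadjusted p = 0.0225, edgeR adjusted p = 0.617), and the libraries overlapped. At 12 h they did not overlap, with a log2 fold change of -0.18 (SE 0.144, edgeR adjusted p = 0.53). Over the 36 h the stiff change minus the soft change was -0.35 on the log2 scale and was not called (SE 0.175, edgeR adjusted p = 0.836).

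**Figure D3:**
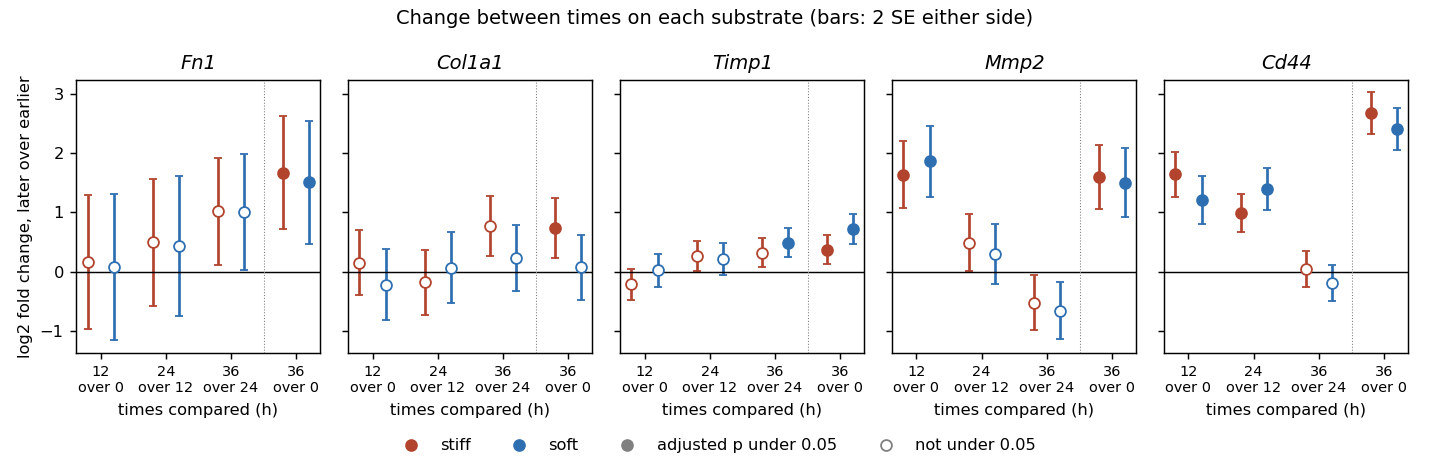
Log2 fold change of the later over the earlier time (vertical axis) for each tested gene, in the 3 steps of 12 h and over the whole 36 h, red for stiff and blue for soft, with bars of 2 SE on either side. Filled circles have an adjusted p under 0.05. Cd44 is called in the first 2 steps and Mmp2 in the first, on both substrates, and Fn1 only over the whole 36 h.

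Counted over the list, the members moved in 1 direction where they were called. In the first 12 h 2 of 5 rose on stiff (Mmp2 and Cd44) and the same 2 on soft, against 11.8% and 15.2% of all tested genes called higher. From 12 h to 24 h 1 of 5 rose on each substrate (Cd44), against 14.5% on stiff and 19% on soft. From 24 h to 36 h 0 of 5 were called on stiff, where 9.89% of all genes were called (1 without stiff 36 h replicate 3, Col1a1, and 2 without stiff 24 h replicate 3, Fn1 and Col1a1), and 1 of 5 rose on soft (Timp1), against 4.66%; it was 0 without soft 24 h replicate 1 or soft 36 h replicate 2. Over the whole 36 h 5 of 5 rose on stiff, against 29.2% of all genes, and 4 of 5 on soft (Fn1, Timp1, Mmp2 and Cd44), against 28%. The count on stiff was 3 without stiff 36 h replicate 2, where Col1a1 and Timp1 were not called. On soft it was 3 without soft 0 h replicate 2 or soft 36 h replicate 3, where Fn1 was not called. The members' median log2 fold change over 36 h was 1.59 on stiff and 1.50 on soft, against 0.0132 and 0.0246 over all tested genes. The list was drawn up with earlier results of these data known, so these shares describe it and test nothing.

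None of the steps was shown to differ between substrates for any member. The stiff change minus the soft change was called for 0 of 5 members over the first 12 h (1.87% of all genes), from 12 h to 24 h (4.44%), from 24 h to 36 h (0%) and over the whole 36 h (0.00843%). DESeq2 also called 0 of 5 in each.

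By group means the tested members followed different courses. Cd44 climbed to 24 h and stayed near that level, Mmp2 had its highest mean at 24 h, Fn1 and Timp1 had theirs at 36 h, and Col1a1 had its highest mean at 36 h on both substrates with little order before it. Pearson's r of mean log2(CPM + 1) over the 8 groups was above 0.95 with 553 other tested genes for Cd44 and 140 for Mmp2, but with 40 for Timp1, 34 for Fn1 and 0 for Col1a1. The gene most like Cd44 was ENSRNOG00000008173 (r = 0.997), at a mean of 58.8 CPM (0 h), 153.5 (12 h), 314.5 (24 h) and 300.6 (36 h) over both substrates. The gene most like Mmp2 was ENSRNOG00000011285 (r = 0.995), at 0.306, 1.15, 1.63 and 1.05 CPM. These are low levels, at which a library holds few counts of the gene. These correlations describe 8 points ordered mainly by time, and the files do not give these genes a name.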

How the data were processed

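Libraries were made with QuantSeq FWD from total RNA, per the labels' protocols, and the tools listed in the submitters' processing notes are HTSeq, HISAT2 2.1.0 and FastQC, with build rn6. The deposited values are raw integer counts for each gene in 23 libraries. Annotation, strand setting and handling of duplicates are not stated there, so how reads in overlapping genes were counted is not known. The count table was filtered with filterByExpr (minimum count 10, minimum total 15), which left 11857 genes, scaled with TMM and tested with edgeR 4.0.16 (R 4.3.3) in 1 quasi-likelihood fit of 8 group means. Standard errors were derived from the F statistic. Adjusted p-values are Benjamini-Hochberg values over all tested genes. The procedure was tested on simulated data. Replicate libraries differed by more than sampling noise (chi-square per degree of freedom 2.42 to 9.11). Alternatives were RLE factors, no filter, a floor of 5 CPM in 3 or more libraries, the round as a block, DESeq2 1.42.0, the compared groups alone, thinning to the smallest total, and each library left out. All 6 members were named by rule, and the nearest genes only by identifier. The list of members and the tests were chosen with earlier results of these data known; the motifs and the 2 members whose nearest gene is printed were chosen after the values were seen. Figures were drawn with matplotlib 3.10.9.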

Additional observations from a re-analysis of the deposited data

How the results depend on the processing

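Of the 16 member changes that were called, 12 stayed called under every alternative run, and none changed sign. The other 4 (Col1a1 and Timp1 over 36 h on stiff, Fn1 over 36 h and Timp1 from 24 h to 36 h on soft) are given above with the libraries they depend on.

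The number of members called moved as follows. With no filter on low counts it was 1 for stiff against soft at 36 h (Col1a1) and 1 for a stiffness effect that differs between times (Spp1, on sums of 0 to 32 counts), against 0 in each. It was 2 from 12 h to 24 h on each substrate, against 1 (Timp1 joined Cd44 on stiff, Spp1 on soft), 2 from 24 h to 36 h on stiff (Fn1 and Col1a1), against 0, and 2 on soft (Fn1 and Timp1), against 1. Over the 36 h on soft it was 5, against 4, with Spp1. With only the compared groups it was 2 from 12 h to 24 h and 2 from 24 h to 36 h on stiff. Leaving out single libraries gave 1 to 2 from 12 h to 24 h on stiff. From 24 h to 36 h it gave 0 to 2 on stiff and 0 to 1 on soft. Over the 36 h it gave 3 to 5 on stiff and 3 to 4 on soft. The round as a replicate block gave 3 from 24 h to 36 h on stiff (Fn1, Col1a1 and Timp1) and 2 on soft (Fn1 and Timp1). For Fn1 this step had a log2 fold change of 1.13 on stiff (SE 0.311, edgeR adjusted p = 0.0112) and 1.08 on soft (SE 0.335, edgeR adjusted p = 0.0296) with the block. Over all tested genes the rounds were not shown to pair the libraries. Deviations of same-round stiff and soft libraries correlated above 0.1 in 4 of 11 pairs (-0.0279 to 0.148), and only the 0 h pair of round 1 was negative. This measure covers all tested genes and does not describe single members. Fn1 was highest in round 3 in 8 of 8 groups. Fn1, Timp1 and Cd44 were each lowest in round 1 in 6 of 8 groups, Col1a1 in 4 and Mmp2 in 3. Whether the round affects these members was not tested.

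Of 48 uncalled values, 22 changed sign, most of them when a single library was left out. For stiff over soft, the ranges over left-out libraries were -0.59 to 0.68 (0 h), -0.14 to 1.16 (12 h) and -0.27 to 0.80 (24 h) for Fn1, -0.15 to 0.21, -0.09 to 0.79 and -0.10 to 0.33 for Col1a1, -0.10 to 0.19 (0 h) for Timp1, -0.00 to 0.30 (0 h) and -0.31 to 0.24 (12 h) for Mmp2, and -0.33 to 0.07 (0 h) and -0.23 to 0.07 (24 h) for Cd44. Thinning gave -0.10 for Fn1 and -0.01 for Timp1 at 0 h. For steps on stiff, they were -0.31 to 0.99 (0 to 12 h) and -0.16 to 0.97 (12 to 24 h) for Fn1, -0.36 to 0.51 and -0.53 to 0.33 for Col1a1, and -0.14 to 0.16 (24 to 36 h) for Cd44. On soft they were -0.77 to 0.50 and -0.01 to 1.28 for Fn1 in the same first steps, -0.01 to 0.21 (12 to 24 h), -0.02 to 0.43 (24 to 36 h) and -0.18 to 0.28 (0 to 36 h) for Col1a1, and -0.14 to 0.14 (0 to 12 h) for Timp1. In that first soft step DESeq2 gave -0.02, the replicate block -0.19 and thinning -0.11 for Fn1, and thinning -0.10 for Timp1. The cause of these shifts was not tested beyond the loss of a library. Of 16 further differences between stiff and soft steps, not given by value, 11 changed sign and 0 were called in any fit. Fn1 held 7 to 64 counts in a library and Spp1 held 70 in all.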
